A study of Homo sapiens with 46 samples.

Results

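CFTR and 5 genes around it on the long arm of chromosome 7, CAPZA2, ST7, WNT2, CTTNBP2 and LSM8, were followed in cells that lose 1 of their lamins. These 6 genes of the 62756 in the count table were chosen by name, on measured values: CFTR for its rise in the Lamin A/C line under auxin, and CFTR with CTTNBP2 for their near absence from the Lamin B2 line. Values that entered that choice are described below without a test. The cells were DLD-1, a human cell line established from a colorectal adenocarcinoma. They comprised the parental cells, which carry no tag, and 3 derived lines in which the N-terminal end of an endogenous lamin carries a degron induced by auxin: Lamin A/C in the first, B1 in the second and B2 in the third. Auxin, a plant hormone that sends the tagged protein to the proteasome, was given at 1 mM for 0, 16 or 96 h to all 4 lines, so the parental groups show auxin without a degron. Of the 12 groups, 10 had 4 replicate libraries, and the Lamin B1 line at 0 h and the Lamin B2 line at 96 h had 3. Each replicate was 1 well of a culture plate, so p-values measure the spread between wells. The labels do not say whether a tagged line is 1 clone or whether the 0 h wells received the DMSO in which auxin was dissolved, and lamin protein was not analysed here.

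CFTR is a cyclic AMP-gated chloride and bicarbonate channel of the apical membrane of epithelial cells, and in the intestine it drives fluid secretion from the crypts. Its transcription is known to rest on elements spread over its introns and flanks that differ between cell types, within a stretch bounded by CTCF. CTTNBP2 encodes a cortactin-binding protein of dendritic spines that also binds striatins. WNT2 is a secreted WNT ligand. LSM8 belongs to the nuclear LSM ring that binds U6 small nuclear RNA, and CAPZA2 is an alpha subunit of the protein that caps the barbed ends of actin filaments. ST7 is a gene once proposed as a tumour suppressor. Lamins line the inner nuclear membrane, where silent chromatin is often held, and CFTR is a known example of a gene that lies nearer the nuclear rim in cells that do not transcribe it.

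In order along the chromosome (GRCh38, positions of the count table), CAPZA2 lay at chr7:116811070-116922049 on the plus strand, ST7 at chr7:116953238-117230176 on the plus strand, and WNT2 at chr7:117275451-117323152 on the minus strand. CFTR followed at chr7:117287120-117715971 on the plus strand, CTTNBP2 at chr7:117710651-117874139 on the minus strand, and LSM8 at chr7:118184144-118204035 on the plus strand. All 6 are protein-coding. The table's CFTR model began 192.9 kb before the RefSeq start of the gene, and therefore ran over WNT2. CFTR and CTTNBP2 converge, and their 3′ ends shared 51 exonic bases on opposite strands, 0.303% of the exonic bases of CFTR and 0.732% of those of CTTNBP2. CFTR also shared 169 exonic bases with WNT2. Whether reads were counted by strand is not given in the sources used here, so reads in these shared stretches cannot be assigned to 1 gene with certainty.

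The promoters of CFTR and CTTNBP2 are shown because these were the members whose levels moved most. RefSeq lists 2 starts for CTTNBP2, and the first is shown. Each is the 250 bases before the RefSeq start (GRCh38.p14), read 5′ to 3′ on the gene's own strand, and capitals mark matches to the motifs searched. The CFTR window lies at chr7:117479775-117480024 on the plus strand and the CTTNBP2 window at chr7:117873442-117873691 on the minus strand.
CFTR: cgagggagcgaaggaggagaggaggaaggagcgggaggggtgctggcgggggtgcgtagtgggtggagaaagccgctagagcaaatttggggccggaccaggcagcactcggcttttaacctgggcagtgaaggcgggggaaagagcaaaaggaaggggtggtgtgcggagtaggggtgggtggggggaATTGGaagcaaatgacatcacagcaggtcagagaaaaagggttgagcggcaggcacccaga
CTTNBP2: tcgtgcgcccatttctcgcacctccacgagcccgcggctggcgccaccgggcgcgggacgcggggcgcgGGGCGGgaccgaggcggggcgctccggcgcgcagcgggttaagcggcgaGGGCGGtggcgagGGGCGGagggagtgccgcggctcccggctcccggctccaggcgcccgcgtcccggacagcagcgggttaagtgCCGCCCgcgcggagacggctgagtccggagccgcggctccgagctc
The motifs were searched on both strands: the GC box (GGGCGG), the CCAAT box (CCAAT), the TATA box (TATAAA), the cyclic AMP response element (TGACGTCA), the AP-1 site (TGANTCA) and the core bound by the aryl hydrocarbon receptor (GCGTG). The CFTR window held 1 inverted CCAAT box at position -61 from the start, a match found in 32.0% of 35114 RefSeq promoter windows of that length. The CTTNBP2 window held 4 GC boxes, at positions -181, -132, -119 and -46, and 42.6% of windows held at least 1. Neither printed window matched the other 4 motifs, which says only that those letters were not there. Matches to different motifs did not overlap, since each printed window held matches to 1 motif. The CFTR window had 11 CpG dinucleotides, equal to the median of all windows, and 61.2% GC. The CTTNBP2 window had 45 CpG and 80.0% GC, and 99.6% of windows had no more CpG than that. The second CTTNBP2 window, at chr7:117872221-117872470, had 13 CpG and 63.6% GC, close to the CFTR window, and held no GC box and 1 match to GCGTG. RefSeq gave a promoter for all 6 members: the LSM8 window had 24 CpG, the first ST7 window 36, and the WNT2 and CAPZA2 windows 38 each.

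The 46 libraries held 479446 to 37309421 counts with a median of 11533218, and 6 had under 5000000, among them the Lamin B2 line's replicates 1 and 4 at 0 h and replicate 3 at 16 h, the Lamin B1 line's replicate 2 at 0 h and the Lamin A/C line's replicate 1 at 0 h. Levels are CPM, the counts of a gene scaled to a common library size, with TMM factors that adjust for composition. The cells read as epithelial. The sum of 10 colorectal epithelium markers ran from 5480 to 12600 CPM with a median of 7760. Most of it was the keratin genes KRT8 and KRT18, with medians of 3980 and 1600 CPM. EPCAM ran from 321 to 598 and CDX2 from 58.1 to 248 CPM over the libraries. VIL1, LGALS4 and CEACAM5 were low, with medians of 1.26, 0.321 and 0.434 CPM, and reached 0 CPM in the lowest. The summed level of 5 fibroblast markers stayed at or under 5.54 CPM and that of 4 immune markers at or under 1.62 CPM, and COL1A2 and DCN had no count. The sum of 3 endothelial markers ran from 2.18 to 17.5 CPM, nearly all of it VWF. At 0 h the tagged gene was present in its own line: LMNA at 435 ± 230 CPM (SD, n = 4) in the Lamin A/C line against 738 ± 111 in the parental line, LMNB1 at 94.7 ± 7.31 (n = 3) against 147 ± 8.92, and LMNB2 at 143 ± 79.2 (n = 4) against 283 ± 32.5. Degradation acts on protein, and each lamin was set only beside the parental line. These values therefore check neither the degradation nor which lamin carries the tag. In bulk RNA, fewer cells that express a gene and less RNA per cell cannot be told apart.

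**Figure D1:**
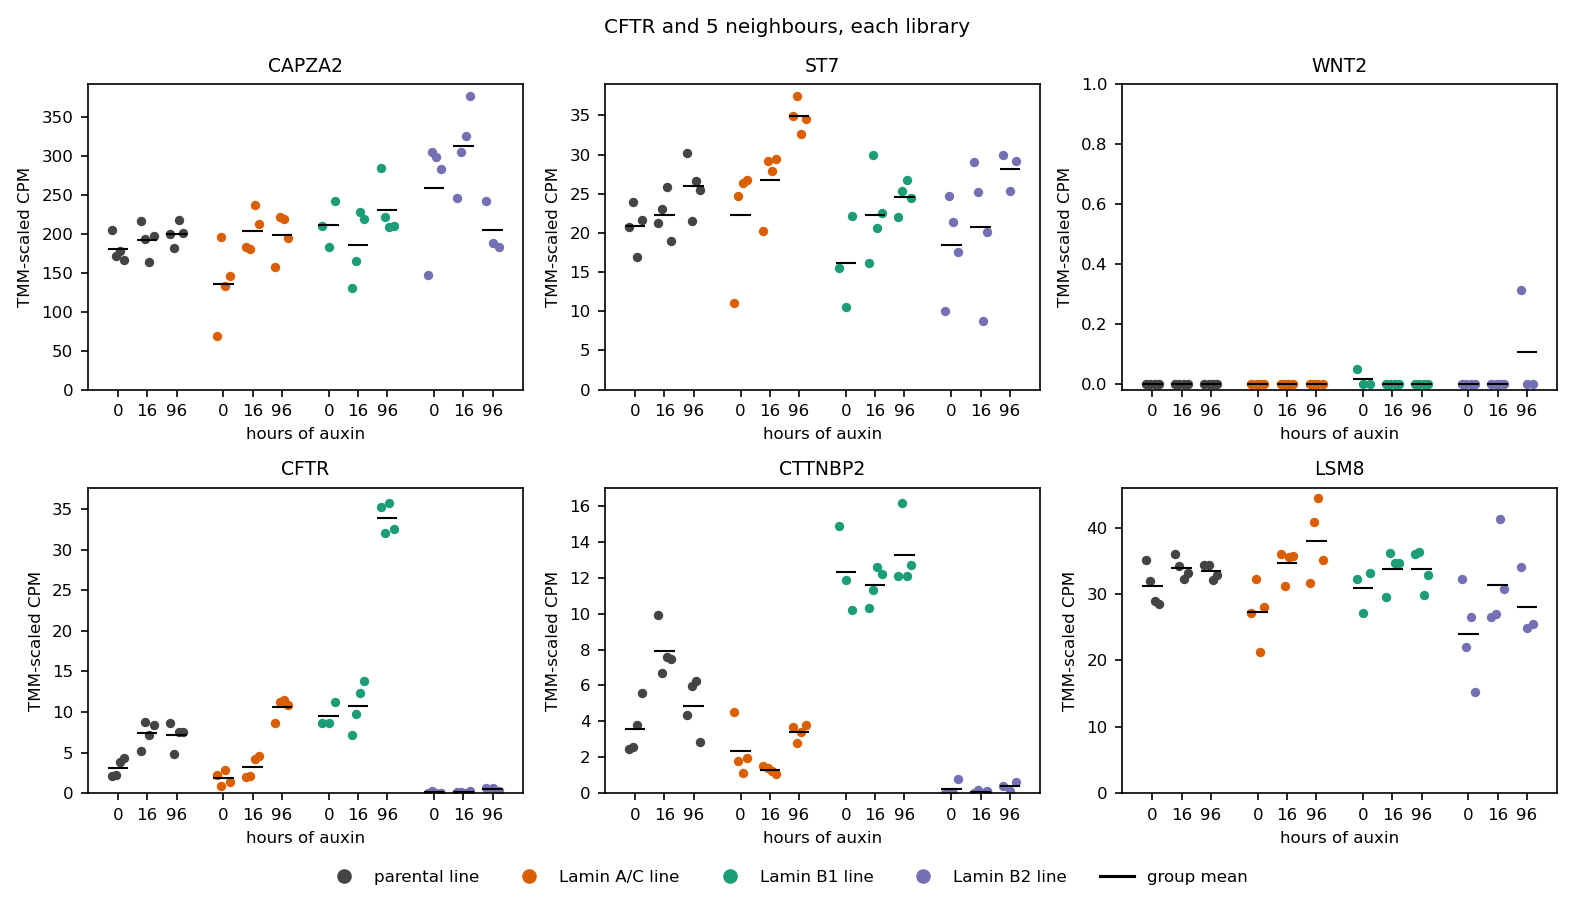
Level of each member in each of the 46 libraries (points, TMM-scaled CPM on linear axes that start at 0, apart from a small margin for WNT2) by line and hours of auxin, with group means as bars. CFTR is highest in the Lamin B1 line at 96 h, CFTR and CTTNBP2 are near 0 in all Lamin B2 groups, and WNT2 is at 0 in all but 2 libraries.

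In the parental line, CFTR and CTTNBP2 both rose within 16 h of auxin, and CFTR was still raised at 96 h. CFTR measured 2.07, 2.23, 3.77 and 4.35 CPM in the 4 libraries at 0 h, from 17 to 27 counts each. At 16 h it measured 5.19, 7.10, 8.39 and 8.78 CPM, and at 96 h 4.79, 7.49, 7.54 and 8.66 CPM. Every library with auxin lay above every library without it at both times. The log2 change was 1.35 ± 0.30 (SE) at 16 h, a 2.55-fold rise (edgeR quasi-likelihood test, adjusted p = 0.00298 by Benjamini-Hochberg over 21484 genes), and 1.29 ± 0.30 at 96 h (edgeR adjusted p = 0.00426). CTTNBP2 measured 2.44, 2.56, 3.77 and 5.56 CPM at 0 h and 6.68, 7.50, 7.57 and 9.92 CPM at 16 h, again without overlap, a log2 change of 1.22 ± 0.30 (edgeR adjusted p = 0.0084). At 96 h CTTNBP2 spread from 2.85 to 6.24 CPM, which overlapped the 0 h libraries, and the change of 0.50 ± 0.32 did not pass the threshold of 0.05 (edgeR adjusted p = 0.354). Both time points share the same 0 h libraries. Thus 2 of the 5 members that passed the low-count filter were called at 16 h, where 9.01% of all genes tested were called, and 1 of 5 at 96 h, where 7.78% were. In the ranking of all 21484 genes, 182 had a larger log2 change than CFTR at 16 h, and 275 at 96 h.

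The Lamin B1 line already stood apart at 0 h, before any auxin, with CFTR and CTTNBP2 both higher than in the parental line. CFTR measured 8.63, 8.68 and 11.2 CPM in its 3 libraries at 0 h, and CTTNBP2 measured 10.2, 11.9 and 14.9 CPM. No parental library at 0 h reached these levels for either gene. The log2 differences from the parental line were 1.73 ± 0.32 for CFTR (edgeR adjusted p = 0.000186) and 1.89 ± 0.32 for CTTNBP2 (edgeR adjusted p = 5.96e-05), 3.32-fold and 3.69-fold. These 2 of 5 members were called in a comparison that called 4.05% of all genes tested. The lowest of the 3 libraries in depth had 13 counts of CFTR and 18 of CTTNBP2.

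With auxin, CFTR rose further in the Lamin B1 line, late, while CTTNBP2 stayed near its level. At 16 h CFTR measured 7.11, 9.78, 12.3 and 13.8 CPM, which overlapped the 0 h libraries, and the log2 change was 0.18 ± 0.28 (edgeR adjusted p = 0.813). At 96 h it measured 32.1, 32.5, 35.3 and 35.8 CPM, from 326 to 692 counts each, the highest level of CFTR in the study. This was a log2 change of 1.81 ± 0.28, a 3.51-fold rise (edgeR adjusted p = 1.87e-05). CTTNBP2 measured 10.3 to 12.6 CPM at 16 h and 12.1, 12.1, 12.7 and 16.2 CPM at 96 h. Its log2 changes of -0.10 ± 0.29 and 0.09 ± 0.29 did not pass (edgeR adjusted p = 0.919 and 0.938). So 0 of 5 members were called at 16 h, where 1.5% of genes tested were, and 1 of 5 at 96 h, where 3.17% were. The response of CFTR in this line differed from the parental response by -1.17 ± 0.41 at 16 h (edgeR adjusted p = 0.585) and 0.52 ± 0.41 at 96 h (edgeR adjusted p = 0.54). For CTTNBP2 the same differences were -1.32 ± 0.42 (edgeR adjusted p = 0.477) and -0.41 ± 0.43 (edgeR adjusted p = 0.657). No member's response was called different from the parental response, in tests that called 0.0279% of genes at 16 h and 1.04% at 96 h.

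The level of CFTR relative to CTTNBP2 was set out within each library, a comparison chosen after the values were seen. The log2 ratio of CFTR to CTTNBP2, each with 0.5 CPM added, was -0.35 ± 0.44 (SD, n = 3) in the Lamin B1 line at 0 h and 1.33 ± 0.26 (n = 4) at 96 h, without overlap. The difference of 1.69 had an exact two-sided permutation p = 0.0286, the smallest that 4 against 3 libraries allow, and 0.114 after adjustment over 4 such tests. Parental cells had a ratio of -0.17 ± 0.13 at 0 h, -0.11 ± 0.54 at 16 h and 0.53 ± 0.70 at 96 h (n = 4 each), and neither difference from 0 h passed (exact permutation p = 0.857 and 0.114). For the Lamin A/C line the ratio was -0.23 ± 0.88 at 0 h, 0.97 ± 0.68 at 16 h and 1.5 ± 0.30 at 96 h, which is given without a test.

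**Figure D2:**
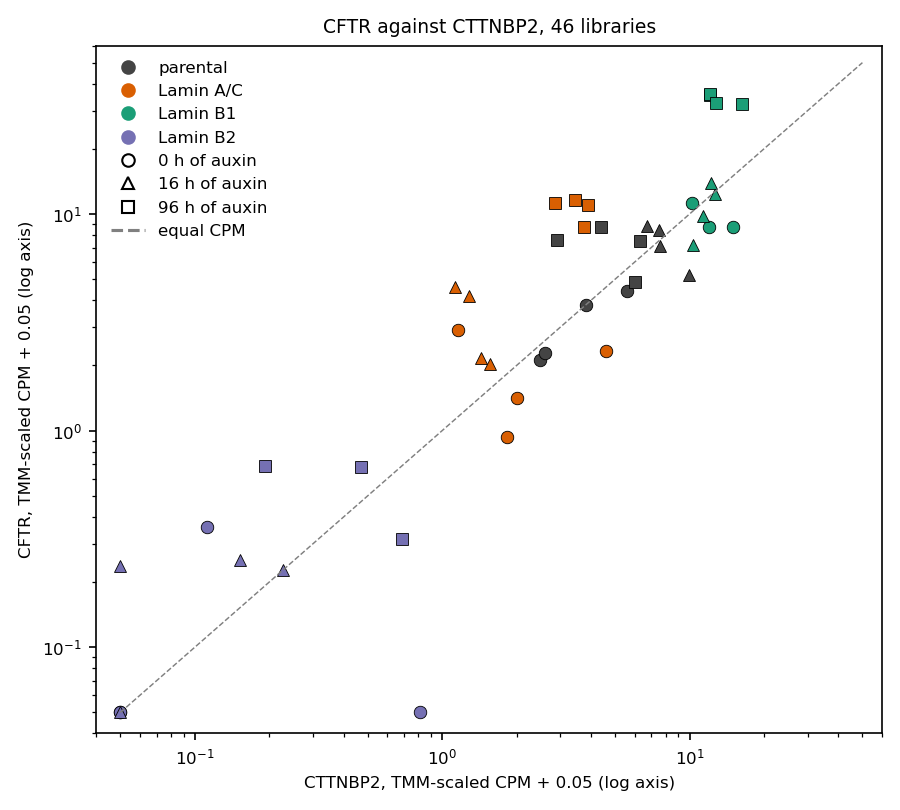
CFTR against CTTNBP2 in each of the 46 libraries (TMM-scaled CPM plus 0.05, both axes logarithmic), coloured by line and shaped by hours of auxin; the dashed line marks equal CPM. The Lamin B1 and Lamin A/C libraries at 96 h (squares) lie above the line of equal CPM, and the Lamin B2 libraries fill the lower left.

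In the Lamin A/C line, whose CFTR response was one of the values that chose these genes, mean CFTR was higher at both times. It measured 0.887, 1.36, 2.27 and 2.86 CPM at 0 h, 1.99, 2.12, 4.15 and 4.53 CPM at 16 h, and 8.64, 10.9, 11.2 and 11.5 CPM at 96 h. The 16 h libraries overlapped those at 0 h and the 96 h libraries did not. The log2 changes were 1.07 ± 0.32 and 2.77 ± 0.31, or 2.11-fold and 6.84-fold. Beside the parental changes of 1.35 and 1.29 given above, the differences were -0.27 ± 0.45 at 16 h and 1.48 ± 0.44 at 96 h. At 0 h the log2 difference of CFTR from the parental line was -0.92 ± 0.36, with libraries that overlapped, and it ran from -1.25 to -0.50 with 1 replicate left out. CTTNBP2 measured 1.11, 1.77, 1.96 and 4.53 CPM at 0 h, 1.08 to 1.51 CPM at 16 h and 2.80 to 3.82 CPM at 96 h. Its log2 changes were -0.65 ± 0.34 and 0.74 ± 0.32, which differed from the parental changes by -1.88 ± 0.46 at 16 h and 0.25 ± 0.45 at 96 h. Its difference of -0.73 ± 0.35 from the parental line at 0 h did not pass (edgeR adjusted p = 0.152). Without replicate 1 at 0 h, which is among the shallow libraries and held the highest CTTNBP2 value, that difference was -0.95 with an edgeR adjusted p = 0.0499. Log2 changes in this line moved with GC content over 8657 well-expressed genes (Spearman's rho -0.71 at 16 h and -0.65 at 96 h). The differences from the parental line at 0 h also moved with GC content (rho 0.49), a limit on the 0 h differences above. The longest transcript of CFTR has 41.0% GC and that of CTTNBP2 45.9%. With the trend on GC and gene length removed together, the CFTR change was 0.89 at 16 h and 2.67 at 96 h.

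In the Lamin B2 line, CFTR and CTTNBP2 were close to 0 in every group, another of the values that chose them. CFTR had 0, 5, 0 and 0 counts in the libraries at 0 h, 5, 3, 0 and 4 counts at 16 h, and 6, 9 and 5 counts at 96 h. CTTNBP2 had 0, 1, 0 and 3 counts at 0 h, 0, 3, 0 and 2 counts at 16 h, and 4, 2 and 12 counts at 96 h. Both genes were thus counted in all 3 libraries at 96 h and missed in at least 1 library at each earlier time. Depth differed: the 96 h libraries held 8649769 to 17989328 counts, and replicate 3 at 16 h, which missed both genes, held 479446. At 0 h, replicate 1, which missed both, held 1894447 and replicate 4, which missed CFTR, held 3724709. Deeper libraries missed genes too: replicate 3 at 0 h (10167202 counts) missed both, and replicate 1 at 16 h (29496614) missed CTTNBP2. The part played by depth was not tested. Pooled over the libraries of a group, CFTR stood at 0.155 unscaled CPM at 0 h (exact Poisson 95% interval 0.0503 to 0.361), 0.179 at 16 h (0.0923 to 0.312) and 0.497 at 96 h (0.304 to 0.768). CTTNBP2 stood at 0.124 at 0 h (0.0337 to 0.317), 0.0744 at 16 h (0.0242 to 0.174) and 0.447 at 96 h (0.265 to 0.707). The same pooled value in the parental line at 0 h was 2.91 (2.32 to 3.61) for CFTR and 3.33 (2.69 to 4.07) for CTTNBP2. These intervals cover counting error only, and reads without molecular identifiers are not independent molecules. The fitted log2 differences from the parental line at 0 h were -4.20 ± 0.57 for CFTR and -4.64 ± 0.59 for CTTNBP2. These rest on few counts: without replicate 2 of the Lamin B2 line CFTR came to -8.27, and without its replicate 4 CTTNBP2 came to -6.26.

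Ordered by mean CFTR level, the 12 groups ran from the Lamin B1 line at 96 h (33.9 ± 1.89 CPM, SD, n = 4), whose libraries lay above all others, to the Lamin B2 line at 0 h (0.0773 ± 0.155). Between them came the Lamin B1 line at 16 h (10.8 ± 2.96), the Lamin A/C line at 96 h (10.6 ± 1.30), the Lamin B1 line at 0 h (9.51 ± 1.49, n = 3) and the parental line at 16 h (7.36 ± 1.62) and 96 h (7.12 ± 1.65), in which each group overlapped the next. A lower set followed without overlap: the Lamin A/C line at 16 h (3.20 ± 1.33), the parental line at 0 h (3.10 ± 1.13) and the Lamin A/C line at 0 h (1.84 ± 0.887). The Lamin B2 line at 96 h (0.511 ± 0.212, n = 3) and 16 h (0.142 ± 0.0953) lay below these. CTTNBP2 was highest in the 3 Lamin B1 groups (13.3 ± 1.97, 11.6 ± 1.04 and 12.3 ± 2.35 CPM at 96, 16 and 0 h), which overlapped one another and no other group. Per kilobase of exon, the scale on which genes can be set beside each other, CFTR stood at 0.185 CPM per kb and CTTNBP2 at 0.514 in the parental line at 0 h, and at 2.02 and 1.90 in the Lamin B1 line at 96 h. The CFTR values divide by the 16821 exonic bases of the table's extended model and depend on it.

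The outer members were expressed in every library, and none of their tested comparisons passed; their values in the Lamin A/C line under auxin and in the Lamin B2 line at 0 h come from contrasts that chose the genes and were not tested. LSM8, at the far side of CTTNBP2, ran from 15.3 to 44.5 CPM over the 46 libraries with a median of 32.3. ST7 ran from 8.70 to 37.5 CPM with a median of 24.6, and CAPZA2 from 68.3 to 377 CPM with a median of 204. Parental log2 changes at 16 and 96 h were 0.12 and 0.10 for LSM8, 0.09 and 0.31 for ST7, and 0.09 and 0.15 for CAPZA2, and none passed (edgeR adjusted p from 0.375 to 0.828). In the Lamin B1 line LSM8 changed by 0.10 at both times, ST7 by 0.39 ± 0.23 and 0.52 ± 0.23, and CAPZA2 by -0.19 ± 0.21 and 0.12 ± 0.21, and again none passed (edgeR adjusted p from 0.247 to 0.856). In the Lamin B2 line the largest were ST7 at 0.52 ± 0.22 (edgeR adjusted p = 0.206) and CAPZA2 at -0.35 ± 0.21 (edgeR adjusted p = 0.428), both at 96 h. The 3 genes gave 0 calls there at either time, where 1.81% of genes were called at 16 h and 3.55% at 96 h. Against the parental line at 0 h, LSM8 differed by -0.19 in the Lamin A/C line and 0.01 in the Lamin B1 line, ST7 by 0.13 and -0.29, and CAPZA2 by -0.40 and 0.24. None of these passed (edgeR adjusted p from 0.162 to 0.992), so 0 of the 4 members tested were called in the Lamin A/C comparison, where 15.8% of genes were. In the Lamin B2 line the same differences, described only, were -0.41 ± 0.15, -0.09 ± 0.21 and 0.53 ± 0.19. Under auxin at 96 h the described changes in the Lamin A/C line were 0.47 ± 0.14 for LSM8, 0.60 ± 0.20 for ST7 and 0.53 ± 0.19 for CAPZA2. With the GC and length trend removed, LSM8 came to 0.21, ST7 to 0.60 and CAPZA2 to 0.34. The exons of ST7 overlap several noncoding genes, the largest share being 6.96% with ST7-AS1 on the other strand, and those of CAPZA2 share 6.95% with a pseudogene on the other strand.

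**Figure D3:**
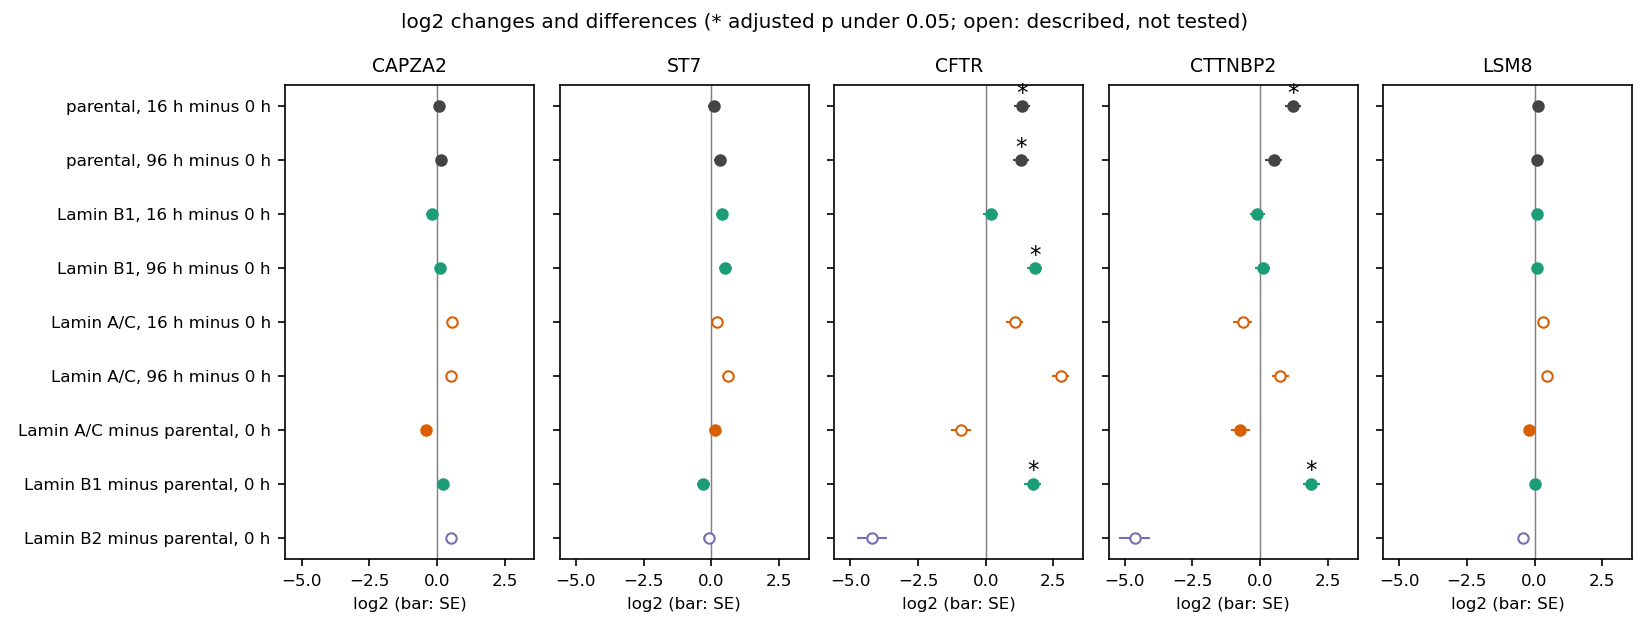
Log2 change or difference of the 5 members that passed the low-count filter in 9 comparisons (points, with the standard error as a bar); filled points were tested, stars mark an edgeR adjusted p under 0.05 and open points are described only. The called values are CFTR in the parental line at 16 and 96 h and in the Lamin B1 line at 96 h, CTTNBP2 in the parental line at 16 h, and both genes in the Lamin B1 line at 0 h.

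WNT2 was close to undetected. It had 4 counts in all 46 libraries, 1 in the Lamin B1 line at 0 h and 3 in 1 library of the Lamin B2 line at 96 h, and it did not pass the low-count filter. For WNT2 in the parental line, a count of 0 over the 4 pooled libraries at 0 h allows at most 0.105 CPM, the value of 3 counts, and ASZ1, a germ-cell gene between WNT2 and the RefSeq start of CFTR, had 2 counts in all.

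Within 1.5 Mb of either end of CFTR the table lists 59 genes, of which 36 had any count, 17 reached a mean of 1 CPM in some group and 19 passed the filter. Beyond the members these included TES, the caveolin genes CAV2 and CAV1, the receptor kinase gene MET, ST7-AS1, ST7-AS2, ST7-OT4 and TPM3P1, all on the CAPZA2 side. In the Lamin B2 line at 0 h the 14 tested genes of the window that are not members differed from the parental line by -0.72 to 0.47, with a median of -0.26, beside -0.04 for the 1074 tested genes of chromosome 7 and -0.03 for all genes. The values of -4.20 for CFTR and -4.64 for CTTNBP2, which chose the genes, are given beside this range as a description. Of the other members, ST7 on one side and LSM8 on the other lay within it and CAPZA2 at 0.53 above it. In the Lamin B1 line at 0 h the same 14 genes differed by -1.45 to 0.95, with a median of -0.61 beside -0.06 for chromosome 7, and CFTR at 1.73 and CTTNBP2 at 1.89 lay above that range. The tested gene whose start was nearest before CFTR was ST7-AS2, at -333.5 kb from the RefSeq start. Under auxin in the parental line the same 14 genes had a median change of -1.08 at 16 h, beside -0.04 for all genes. Of them 6 were called, all lower, where 9.01% of all genes tested were called. Most of the 14 were noncoding features at low levels. Among the protein-coding ones, TES changed by 0.11, MET by 0.31, CAV1 by -0.64 and CAV2 by -0.72. At 96 h the median was -0.76 with 2 called, beside -0.03 for all genes, of which 7.78% were called. Those 2 were CAV1 and CAV2, which build the caveolar coat: CAV1 fell by 1.22 on the log2 scale in the parental line (edgeR adjusted p = 6.24e-05) and by 1.51 in the Lamin B1 line at 96 h (edgeR adjusted p = 8.05e-06). CAV2 fell by 1.03 and 1.14 there (edgeR adjusted p = 0.000219 and 0.00015), and TES fell by 0.54 in the Lamin B1 line (edgeR adjusted p = 0.027). In the Lamin A/C line CAV1 changed by 0.01 at 16 h and -1.12 at 96 h, and CAV2 by 0.30 and -0.27. At 96 h in the Lamin B2 line CAV1 fell by 1.26 (edgeR adjusted p = 0.000147). CAV2 fell there by 0.71 (edgeR adjusted p = 0.0277), a call lost in 6 of 17 alternatives.

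**Figure D4:**
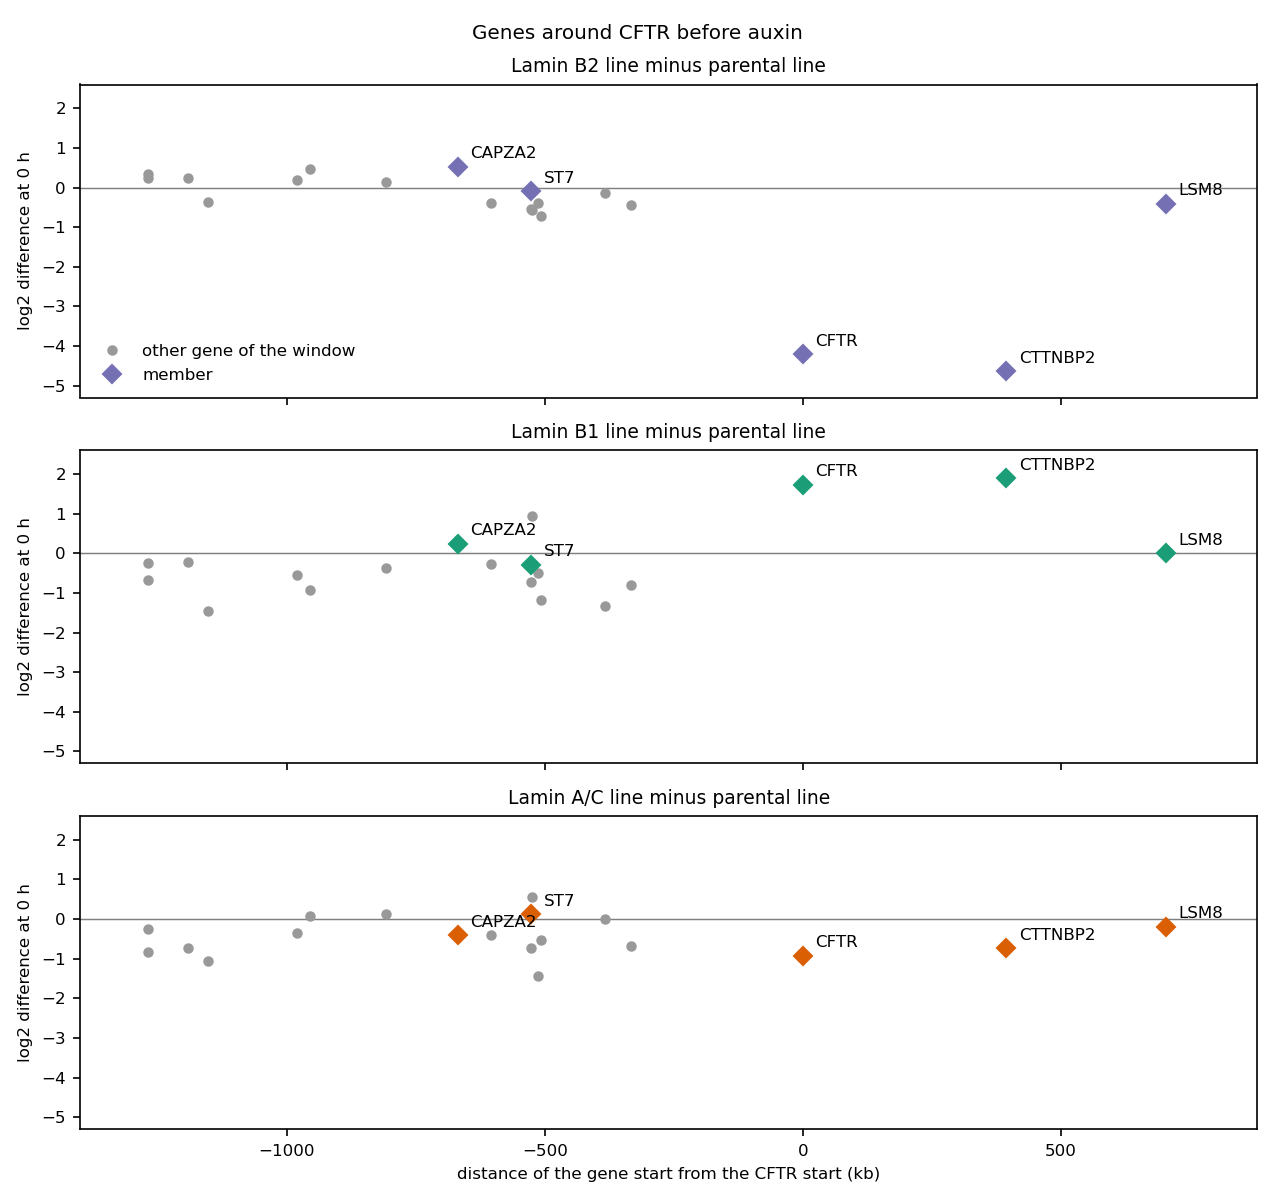
Log2 difference of each tagged line from the parental line at 0 h for the 19 tested genes of the window, placed by the distance of their start from the RefSeq start of CFTR in kb (diamonds, members; grey points, other genes). CFTR and CTTNBP2 lie at -4.20 and -4.64 in the Lamin B2 line and at 1.73 and 1.89 in the Lamin B1 line. The other tested genes lie closer to 0 in both of these lines, with LSM8 alone on the CTTNBP2 side.

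The span of CFTR also holds 7 annotated features, among them ASZ1, CFTR-AS1, 1 further antisense gene and pseudogenes, and 5 of them had counts. Of their 86 counts, 50 fell in the Lamin B1 line at 96 h, the group with the most CFTR, 0 fell in any Lamin B2 library, and in that Lamin B1 group 39 were on features of the minus strand and 11 on a feature of the plus strand. Set against CFTR itself, these counts came to 2.64% of the CFTR counts in the Lamin B1 line at 96 h, 1.61% there at 0 h, 1.20%, 1.04% and 2.88% in the parental line at 0, 16 and 96 h, and 0%, 1.54% and 0.512% in the Lamin A/C line. Outside the Lamin B1 line at 96 h each rests on at most 9 counts, so they are not ranked. These features share at most 8 exonic bases with CFTR, and without the strand setting their reads cannot be told apart from reads of the CFTR primary transcript, which total RNA libraries retain.

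Genes of chloride and bicarbonate transport, the pathway of CFTR, were read from a list of 31, of which 24 were tested. At 96 h, 3 were called higher and 1 lower in the parental line, where 7.78% of all genes were called, with a list median of 0.02 beside -0.03 for all genes. SLC12A2, the basolateral cotransporter that loads chloride for CFTR, rose from 475 ± 52.8 to 819 ± 54.1 CPM (log2 0.79 ± 0.16, edgeR adjusted p = 0.0014), the sodium-proton exchanger gene SLC9A2 rose by 0.79 ± 0.14 (edgeR adjusted p = 0.000172) and the VIP receptor gene VIPR1 by 0.57 ± 0.13 (edgeR adjusted p = 0.00261), while EZR, the gene for ezrin, fell by 0.53. In the Lamin B1 line, where 3.17% were, 3 were called higher, 3 lower, with a median of 0.06 beside 0.04. SLC9A2 rose from 58.6 ± 5.88 to 107 ± 9.58 CPM (edgeR adjusted p = 0.000161) and VIPR1 by 0.52, while EZR fell by 0.68 and ATP1B1 by 0.58. KCNQ1, a basolateral potassium channel gene, rose from 4.58 ± 1.24 to 11.2 ± 2.93 CPM (log2 1.19 ± 0.31, edgeR adjusted p = 0.0184). Leaving out any 1 of the 3 libraries at 0 h, or replicate 4 at 96 h, made KCNQ1 miss the threshold, with edgeR adjusted p up to 0.122. In the Lamin A/C line, where 15.4% of all genes were called at 96 h, 5 were called higher and 4 lower, led by the chloride channel gene ANO1 (0.161 ± 0.136 to 1.29 ± 0.493 CPM), KCNQ1 (1.99 ± 0.271 to 7.11 ± 1.36 CPM) and SLC9A2 (45.6 ± 4.57 to 84.1 ± 6.43 CPM). SLC9A2 was thus called higher at 96 h in all 3 of these lines.

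Transcription factors reported to act on CFTR or to mark intestinal epithelium were read from a list of 18, of which 15 were tested. In the parental line at 96 h 5 were called higher, 0 lower, where 7.78% of all genes were called, with a list median of 0.22 beside -0.03. CDX2, a master regulator of intestinal identity, rose from 88.7 ± 13.8 to 209 ± 25.7 CPM (edgeR adjusted p = 5.02e-09), FOXA1 from 176 ± 18.9 to 351 ± 28.7 CPM (edgeR adjusted p = 3.97e-07) and the epithelial ETS factor ELF3 from 38.0 ± 5.18 to 68.8 ± 8.24 CPM (edgeR adjusted p = 1.88e-05), with EHF and CTCF also called at 0.62 and 0.46. In the Lamin B1 line, where 3.17% of all genes were called, 3 rose, 2 fell, with a median of 0.08 beside 0.04: EHF, another ETS factor, from 132 ± 11.8 to 347 ± 17.1 CPM (edgeR adjusted p = 3.81e-08), ELF3 from 47.9 ± 3.97 to 112 ± 10.1 CPM (edgeR adjusted p = 4.93e-08) and CDX2 by 0.60, while HNF4A fell by 0.52 and FOXA2 by 1.97 (edgeR adjusted p = 0.013). The FOXA2 call was lost without replicate 1 at 0 h, or replicate 1 or 4 at 96 h (edgeR adjusted p up to 0.175). In the Lamin A/C line, where 15.4% were, 2 rose, 2 fell, with a median of 0.13 beside 0.03: EHF from 99.7 ± 26.0 to 220 ± 5.36 CPM and IRF2 from 13.1 ± 5.00 to 23.4 ± 4.32 CPM (edgeR adjusted p = 0.0683 with the compared groups alone), against HNF4A from 37.6 ± 3.36 to 23.2 ± 1.83 CPM and GATA6 by -0.57.

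Partners of the neighbouring proteins were read from 4 further lists, beside 7.78%, 3.17% and 15.4% of all genes called at 96 h in the parental, Lamin B1 and Lamin A/C lines. Of 19 striatin complex and cortactin partners of CTTNBP2, all tested, 1 was called in the parental line at 96 h (SIKE1, higher, 0.48 ± 0.15, edgeR adjusted p = 0.0429, a call lost in 9 of 18 alternatives), 1 in the Lamin B1 line (PPP2CB, lower, a call lost without replicate 3 at 0 h or replicate 2 at 96 h, with edgeR adjusted p = 0.113 and 0.0813) and 6 in the Lamin A/C line, 4 of them higher. Their medians were 0.07, -0.17 and 0.01. The other 7 LSM ring subunits gave 0 calls in the parental and Lamin B1 lines and 1 in the Lamin A/C line (LSM4, lower by 0.52, edgeR adjusted p = 0.0484, a call lost in 13 of 18 alternatives), with medians of 0.26, 0.22 and -0.29. Among 14 tested genes of actin capping protein and its partners, 0 were called in the parental and Lamin B1 lines, and CAPZB, CARMIL2 and TWF2 were called lower in the Lamin A/C line, TWF2 from 62.5 ± 42.8 to 28.9 ± 2.7 CPM. Without the Lamin A/C line's replicate 1 at 0 h, the values of LSM4, CARMIL2, TWF2 and STK25, one of the striatin partners called lower, were -0.31, -0.86, -0.50 and -0.37 and none passed (edgeR adjusted p = 0.33, 0.123, 0.201 and 0.139). Calls were also lost for CARMIL2 without replicate 4 at 96 h (edgeR adjusted p = 0.058) and for STK25 without replicate 2 at 96 h (edgeR adjusted p = 0.055). With the GC and length trend removed CARMIL2 came to -0.60 (edgeR adjusted p = 0.279) and STK25 to -0.24 (edgeR adjusted p = 0.0699), and without the low-count filter CAPZB came to -0.43 (edgeR adjusted p = 0.103). The capping list had medians of 0.07, -0.04 and 0.10. Of 11 tested WNT ligands, WNT10A and WNT3 were called lower in the Lamin B1 line, WNT10A from 17.3 ± 4.38 to 6.47 ± 0.834 CPM (edgeR adjusted p = 0.000739), and 0 in the other 2 lines. The WNT3 call was lost without replicate 3 at 0 h, or replicate 1 or 4 at 96 h (edgeR adjusted p up to 0.132). The WNT list had medians of 0.12, 0.29 and -0.11 in the parental, Lamin B1 and Lamin A/C lines.

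The genes most like CFTR over the 12 group means, by Pearson's r of log2 CPM among 14006 genes with a mean of at least 1 CPM, were KIT (r = 0.98), TMPRSS2 (0.98), TMTC2 (0.97), VWA2 (0.96) and EPM2AIP1 (0.96), each on another chromosome. CTTNBP2 came 8th with r = 0.95, or 0.80 over the 9 groups outside the Lamin B2 line. KIT, a receptor kinase gene, measured 48.2 CPM in the Lamin B2 line at 0 h, 151 in the parental line and 290 in the Lamin B1 line, and stayed well expressed where CFTR was nearly absent. Those most like CTTNBP2 were CHRM3 (r = 0.97), TMPRSS2 (0.96), DND1P1 (0.96), PTK7 (0.96) and MAML2 (0.96), and CFTR came 11th. By Spearman's rho over the 46 libraries, KIT again ranked first for CFTR (rho = 0.96), TMTC2 and VWA2 ranked 37th and 57th, and CHRM3 ranked 4th for CTTNBP2 (rho = 0.91). For the other tested members r with CFTR was 0.74 for LSM8, 0.30 for ST7 and -0.34 for CAPZA2, and outside the Lamin B2 line it was 0.54, 0.15 and 0.74, so that of CAPZA2 changed sign. All these correlations share the 4 lines as their main source of spread and are given as a description.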

How the data were processed

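The data were a single matrix of unnormalized gene counts covering 46 libraries, deposited by the authors, whose header names featureCounts 1.6.4. Per the submitters' processing notes, STAR 2.7.10a and the build GRCh38 were also used. The strand setting and the annotation release are not given in the sources used here. Per the labels' protocols, libraries were made from total RNA with a stranded kit after removal of ribosomal RNA, which keeps intronic RNA. Each count column was matched to its library by name. Symbols came from a name table (42341 genes matched), gene types and GC content from GENCODE 29. Left out were 3 lines that do not read as a gene with counts.

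Counts were tested with edgeR 4.0.16 (quasi-likelihood, two-sided, TMM scaling, filterByExpr by group, Benjamini-Hochberg, threshold 0.05) in 1 fit of 46 libraries and 12 groups, checked on simulated data. The members and lists were chosen with earlier results of these data known, and named genes followed a rule: the members, window genes from 1 CPM, up to 3 called genes per list with the largest change, and the 5 genes most like CFTR and CTTNBP2; calls beyond these are named where a count is small. Markers were used only to check the cells. One called gene of the transport list is counted but not reported here by name. Replicates within a group all differed beyond sampling noise (chi-square per degree of freedom at least 3.97). Same-numbered replicates deviated together (every r over 0.1) only between the Lamin A/C groups at 0 and 16 h (r from 0.12 to 0.69). Alternatives tried were DESeq2 1.42.0, limma 3.58.1 voom, scaling by RLE or by library size alone, no filter, a GC and length trend removed, the compared groups alone, a replicate block, no library under 5000000 counts, and each replicate left out.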

Additional observations from a re-analysis of the deposited data

Results flagged for a closer look

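Over 50 sets of 4 libraries (5 members in 10 groups), 7 had 1 library far from the other 3 by Dixon's criterion. Chance gives about 1 in 20, a rate that does not apply to values at or near 0. In the Lamin B2 line at 0 h, CFTR was 0.309 CPM in replicate 2 and 0 in the others, CTTNBP2 was 0.764 CPM in replicate 4 and at most 0.0618 in the others, and CAPZA2 was 147 CPM in replicate 1 against 284 to 306. In that line at 16 h CFTR was 0.0 CPM in replicate 3, the shallowest library of the study, against 0.178 to 0.203. The CFTR and CTTNBP2 values of this line chose the genes, and these rest on at most 5 counts per library. Where 3 libraries hold 0, any count in the remaining library is flagged, so these flags carry no result. CTTNBP2 in the Lamin B1 line at 96 h was 16.2 CPM in replicate 2 against 12.1 to 12.7. In the Lamin A/C line, LSM8 at 16 h was 31.2 CPM in replicate 2 against 35.6 to 36.0, and ST7 at 0 h was 11.0 CPM in replicate 1, a shallow library, against 24.7 to 26.8.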

How the results depend on the processing

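The called values of CFTR and CTTNBP2 passed the threshold under every alternative run: CFTR in the parental line at 16 h (1.23 to 1.56 over 18 alternatives) and 96 h (1.17 to 1.5 over 18), in the Lamin B1 line at 96 h (1.71 to 1.97 over 17) and in that line at 0 h (1.57 to 1.95 over 17), and CTTNBP2 in the parental line at 16 h (1.06 to 1.49 over 18) and in the Lamin B1 line at 0 h (1.68 to 2.16 over 17). Leaving out 1 replicate moved CTTNBP2 in the Lamin B1 line from -0.24 to 0.11 at 16 h and from -0.06 to 0.30 at 96 h, and between the Lamin A/C and parental lines at 0 h from -0.95 to -0.48. In the Lamin B2 line at 0 h, leaving out 1 replicate moved the difference of CFTR from -8.27 to -3.66, the lowest without replicate 2, the 1 library with CFTR counts, and that of CTTNBP2 from -6.26 to -4.07, the lowest without replicate 4. Without libraries under 5000000 counts the latter was -5.97. With a replicate block CFTR changed by 1.36 and 1.29 in the parental line and 1.78 in the Lamin B1 line at 96 h, and the block changed no call of a member; it took the genes called in the response difference of the Lamin B1 line at 16 h from 6 to 13.

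Small values of the outer members changed sign without passing the threshold. In the parental line at 16 h, ST7 was -0.01 with RLE scaling and with DESeq2, and -0.03 by library size only. It was -0.08 with the GC and length trend removed (GC below) and -0.09 with the block as well. CAPZA2 was -0.02 by library size only and -0.05 in both GC fits. At 0 h in the Lamin A/C line LSM8 was 0.01 with block and GC, and ST7 -0.05 by library size. At 0 h in the Lamin B1 line LSM8 was -0.01 (RLE, DESeq2, block), -0.02 (library size), -0.03 (GC), -0.06 (block and GC), and ran from -0.04 to 0.09 with 1 replicate left out. With voom weights ST7 passed in the Lamin B1 line (0.55, adjusted p = 0.0397) and CAPZA2 in the Lamin B2 line at 96 h (-0.57, adjusted p = 0.0033), and CAPZA2 passed at 0 h in the Lamin A/C line by library size (-0.58) and without replicate 2 (-0.59). Counts of genes called ran, over alternatives, from 1458 to 4943 (parental 16 h, 1935 in the fit reported), 1207 to 3345 (96 h, 1671), 250 to 1662 (Lamin B1 16 h, 323), 497 to 1619 (96 h, 682), 704 to 1675 (0 h against parental, 870), 4 to 2462 (Lamin B2 16 h, 388), 54 to 2690 (96 h, 762), 1067 to 5483 (Lamin A/C 96 h, 3304), 1317 to 4929 (0 h against parental, 3393), and 5 to 110 and 167 to 1128 (response differences of the Lamin B1 line, 6 and 224); the cause was not tested. The 96 h change in the log2 ratio of CFTR to CTTNBP2 in the Lamin B1 line stayed between 1.49 and 1.93. Without any 1 library its exact permutation p was 0.0667 or 0.1. Those are the smallest values that the remaining libraries allow, so these checks could not pass 0.05 and do not weigh on the result. In the parental line the 96 h change in the ratio was 0.98 without replicate 2 there (exact permutation p = 0.0286). Described only, CFTR in the Lamin A/C line ran from 0.70 to 1.4 at 16 h and from 2.40 to 3.10 at 96 h. Depth limits what low levels can show: 3 counts are 6.26 CPM in the shallowest library.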
